A study of Mus musculus with 4 samples.

Results

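The 10 genes described here encode the receptors, enzymes and binding protein through which mouse cells handle retinoic acid. They are the retinoic acid receptors Rara, Rarb and Rarg, the retinoid X receptors Rxra, Rxrb and Rxrg, the synthesis enzyme Aldh1a2, the breakdown enzymes Cyp26a1 and Cyp26b1, and the binding protein Crabp2. Each was looked up by its symbol in the gene column of a deposited list of Zeb1 peaks, and 20 of the 17435 peaks carried 1 of these symbols. Of the 10 genes, 8 had an assigned peak. Rxrg and Crabp2 had none.

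The peaks come from chromatin immunoprecipitation and sequencing of Zeb1, a zinc finger transcription factor, in D3 cells, an established line of mouse embryonic stem cells (mESC). All libraries were made from cells in ground state medium (GS), a serum-free N2B27 medium with 1 μM PD0325901 (a MEK inhibitor), 3 μM CHIR99021 (a GSK-3 inhibitor) and 20 ng/mL LIF. The 3 Zeb1 ChIP libraries were precipitated with 8 μg of Zeb1 antibody from chromatin fixed with 1% formaldehyde, and 1 input library received no antibody. Each peak carries 3 means over the libraries, which are its treatment reads, its input reads and its enrichment over input after normalization for mapped reads. All values below are such levels in GS, and none is a difference between conditions. Without values per library no SD and no test can be given, and the depth of each library is unknown from the list. The authors state that they drew the same number of reads at random from each sample before mapping.

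Retinoic acid is made from vitamin A by retinol and retinaldehyde dehydrogenases, is carried in the cytoplasm by binding proteins and is degraded by the Cyp26 enzymes. In the nucleus it binds RAR, which sits on DNA as a heterodimer with RXR at direct repeats of a short hexamer. In embryonic stem cells retinoic acid is a well known inducer of differentiation, and its response elements in Rarb and Cyp26a1 are classical examples.

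Across the list, 53.3% of 21000 protein-coding genes had at least 1 assigned peak, against 8 of these 10 genes. A peak centred within 5 kb of the assigned TSS was present for 45.1% of coding genes and for 7 of the 10, all but Cyp26b1, Rxrg and Crabp2. At least 3 peaks were assigned to 4.59% of coding genes and to 3 of the 10, which were Cyp26b1 with 5 peaks, Rara with 4 and Rarb with 3. By position instead of by name, 58.2% of coding genes had a peak overlapping the gene or its flanks of 5 kb, as had 8 of the 10. Counted over start sites, 10 of the 21 curated RefSeq TSSs of these genes lay inside a peak (47.6%), close to the 45.6% of all TSSs of coding genes.

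The enrichment of the 20 peaks was close to that of the list as a whole. Its median was 6.53, with quartiles of 5.53 and 7.83, against a median of 6.50 and quartiles of 4.91 and 8.53 in all peaks. The lowest value was 2.20, at Cyp26b1, and the highest were 15.5, at Aldh1a2, and 22.2, at Rarb. Treatment reads ranged from 20.5 to 186 with a median of 52.9, against 47.4 in all peaks. Their median length was 2225 bp and that of the list 1850 bp. The 10 peaks within 5 kb of the assigned TSS had a median length of 3225 bp, compared with 1950 bp for all peaks at that distance. Per kb of peak, the median was 22.9 treatment reads and 6.88 input reads, against 25.1 and 8.07 in all peaks. The 10 peaks near a TSS had a median enrichment of 7.38 and the other 10 a median of 5.52, against 6.74 and 6.0 in the whole list.

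**Figure D1:**
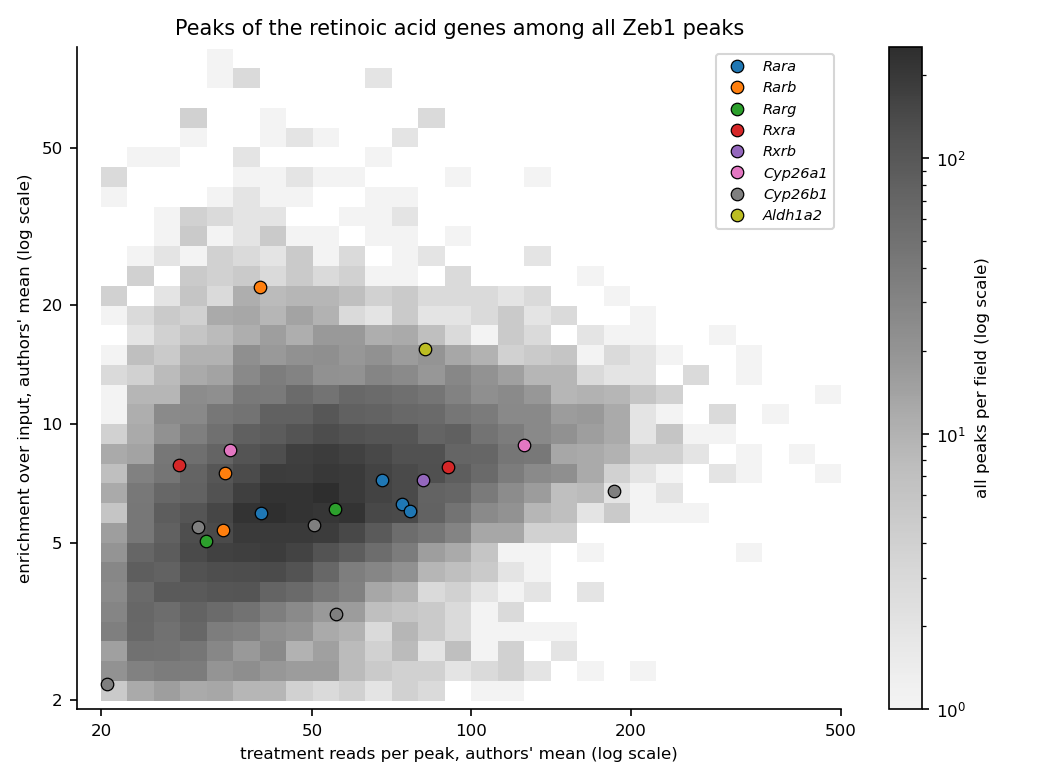
Enrichment over input against treatment reads per peak, both as the authors' means on log scales, for all peaks (grey fields, shaded by number of peaks) and for the 20 peaks of the retinoic acid genes (coloured by gene). Most coloured points lie in the dense part of the list, while 1 Rarb peak at 22.2 and the Aldh1a2 peak at 15.5 lie above it, and 2 peaks of the list with more than 500 reads lie beyond the axis.

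Among the retinoic acid receptors, Rarb carries the response element that the family is best known for. Rarb lies on the minus strand of chromosome 14 in GRCm38 (mm10), and its curated transcripts start at 2 sites 506855 bp apart. The downstream start lay inside a peak at chr14:16574601-16576200, whose centre was 76 bp into the 5′ UTR exon of the shorter transcripts. This peak had 34.3 treatment and 9.71 input reads (enrichment 7.51), higher than in 63.7% of all peaks. The 250 bases before this TSS, chr14:16575477-16575726 on the minus strand, are shown because they hold a direct repeat of 2 hexamers spaced by 5 bases (DR5), in capitals.

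Rarb promoter: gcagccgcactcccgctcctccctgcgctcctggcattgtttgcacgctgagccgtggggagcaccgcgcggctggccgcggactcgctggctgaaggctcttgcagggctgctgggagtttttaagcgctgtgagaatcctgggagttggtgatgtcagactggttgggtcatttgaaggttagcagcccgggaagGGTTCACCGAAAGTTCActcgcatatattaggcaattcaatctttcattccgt

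DR5 elements were searched on both strands with the hexamer AGGTCA, the variant GGGTCA, the variant AGTTCA or the variant GGTTCA in either place. The match in the Rarb promoter, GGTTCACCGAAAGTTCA, is centred 45 bp upstream of the TSS, on the strand of the gene. Such a match was found in 0.450% of the 4670 peaks within 10% of the length of this one. The upstream TSS of Rarb was not inside a peak, and the centre of the nearest peak lay 56481 bp downstream of it.

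That nearest peak, at chr14:17025151-17026550, had the highest enrichment of any peak of the 10 genes. It had 39.8 treatment and 4 input reads (enrichment 22.2), which placed it above 99.1% of the list. Its input is the lowest of the 20 peaks. The list annotates it as an L1Md_T LINE-1 element in intergenic sequence, whereas in the curated RefSeq transcripts that begin upstream it is in intron 1. L1Md_T elements accounted for 1203 peaks with a median enrichment of 7.60, and 93.3% of them were below the Rarb peak. It held 3 matches of the Zeb1 motif, spaced by 212 bp and again by 212 bp. The motif was searched on both strands as CNCACCTG, CNTACCTG, TNCACCTG or TNTACCTG. The stretches around the matches, with the motif in capitals, are given in the direction of Rarb to show that they are nearly identical. They lie at chr14:17025972-17025999, chr14:17025760-17025787 and chr14:17025548-17025575, on the minus strand.

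Rarb LINE-1 match 1: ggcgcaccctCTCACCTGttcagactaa
Rarb LINE-1 match 2: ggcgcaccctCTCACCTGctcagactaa
Rarb LINE-1 match 3: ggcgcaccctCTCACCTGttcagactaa

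Of the L1Md_T peaks, 38.9% held 3 or more matches and 81.5% at least 1. The last Rarb peak, at chr14:17171751-17173300, was intergenic, 90194 bp upstream of the upstream TSS, with 34 treatment and 12 input reads (enrichment 5.40). It also held 3 Zeb1 motif matches. All peaks together covered 0.460% of the long Rarb gene, against a median of 0.278% in 40 coding genes of like length, 12 of which had a higher share.

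Rara, the receptor found in most cell types, lies on the plus strand of chromosome 11 and had 4 peaks of similar enrichment, between 5.95 and 7.22. Of its 5 curated TSSs, 3 lay inside a peak. The peak at chr11:98935701-98938900 covered the most upstream pair of TSSs, with its centre 396 bp upstream, and had 73.9 treatment and 23.1 input reads (enrichment 6.28). The one at chr11:98949251-98952400 had its centre in intron 2 of the main transcript, with 17.5% of its length in an exon, and had 67.7 treatment and 17.7 input reads (enrichment 7.22). The peak at chr11:98958951-98962200 covered the TSS that lies 22775 bp downstream of the outermost one, was centred 104 bp past it in the 5′ UTR of exon 1, and had 76.6 treatment and 26.4 input reads (enrichment 6.03). A shorter peak followed after 750 bp, at chr11:98962951-98964300, with 40 treatment and 13 input reads (enrichment 5.95). It was in intron 1 of the transcript from that internal TSS. Its centre was also 1247 bp upstream of the most downstream curated Rara TSS, which lay outside all peaks.

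The peak over the internal TSS was the only Rara peak with a DR5. The element is centred 455 bp upstream of that TSS, and 1.57% of the 1085 peaks of like length held one. It is printed from chr11:98959948-98960084, plus strand, with the DR5 in capitals, for comparison with Rarb.

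Rara internal promoter: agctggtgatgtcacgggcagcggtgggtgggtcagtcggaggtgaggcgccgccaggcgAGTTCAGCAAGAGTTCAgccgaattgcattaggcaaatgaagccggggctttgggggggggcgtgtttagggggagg

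The 4 Rara peaks held 5, 3, 3 and 1 Zeb1 motif matches from 5′ to 3′, and 29.8% of the gene lay in peaks of the list. Among 989 coding genes within 10% of its length, 8 had a higher share and the median was 2.34%. A peak over the 3′ end of Rara, at chr11:98972801-98975200, was assigned to the neighbouring gene Gjd3 and had an enrichment of 9.20, above all 4 peaks assigned to Rara.

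Rarg, the receptor of skin and early embryo, lies on the minus strand of chromosome 15 and had 2 peaks. Its downstream TSS, 11022 bp from the upstream one, lay inside the peak at chr15:102245351-102248600, with 55.3 treatment and 19 input reads (enrichment 6.11). The other peak, at chr15:102251401-102253200, was centred in intron 3 of the long transcript, 5222 bp past the upstream TSS, with 31.5 treatment and 13 input reads (enrichment 5.05). The upstream TSS was outside all peaks. Thus, among the curated TSSs, an internal one lay inside a peak in each of the 3 RAR genes, and the outermost one did so in Rara and not in Rarb or Rarg. By the GENCODE vM21 annotation, a Rarg TSS at chr15:102252640 lay inside the other Rarg peak. The outermost Rara TSS of that annotation, chr11:98927818, was outside all peaks, so the pattern depends on the annotation.

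The 250 bases before the downstream Rarg TSS, chr15:102246501-102246750 on the minus strand, held 1 Zeb1 motif, shown in capitals as it reads on the strand of the gene. Of 32851 RefSeq promoter windows from 250 bases before to 50 after a TSS, 16.9% held this motif.

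Rarg promoter: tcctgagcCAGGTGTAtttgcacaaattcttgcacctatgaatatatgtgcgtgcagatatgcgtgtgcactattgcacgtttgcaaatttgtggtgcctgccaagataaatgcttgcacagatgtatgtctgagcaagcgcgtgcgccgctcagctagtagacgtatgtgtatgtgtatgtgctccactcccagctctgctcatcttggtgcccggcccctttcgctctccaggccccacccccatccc

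No DR5 was found within the Rarg peaks. The nearest one, GGTTCAAAGTGAGGTCA at chr15:102250817-102250833, lay in the gap between them, 567 bp outside the peak at chr15:102251401-102253200.

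**Figure D2:**
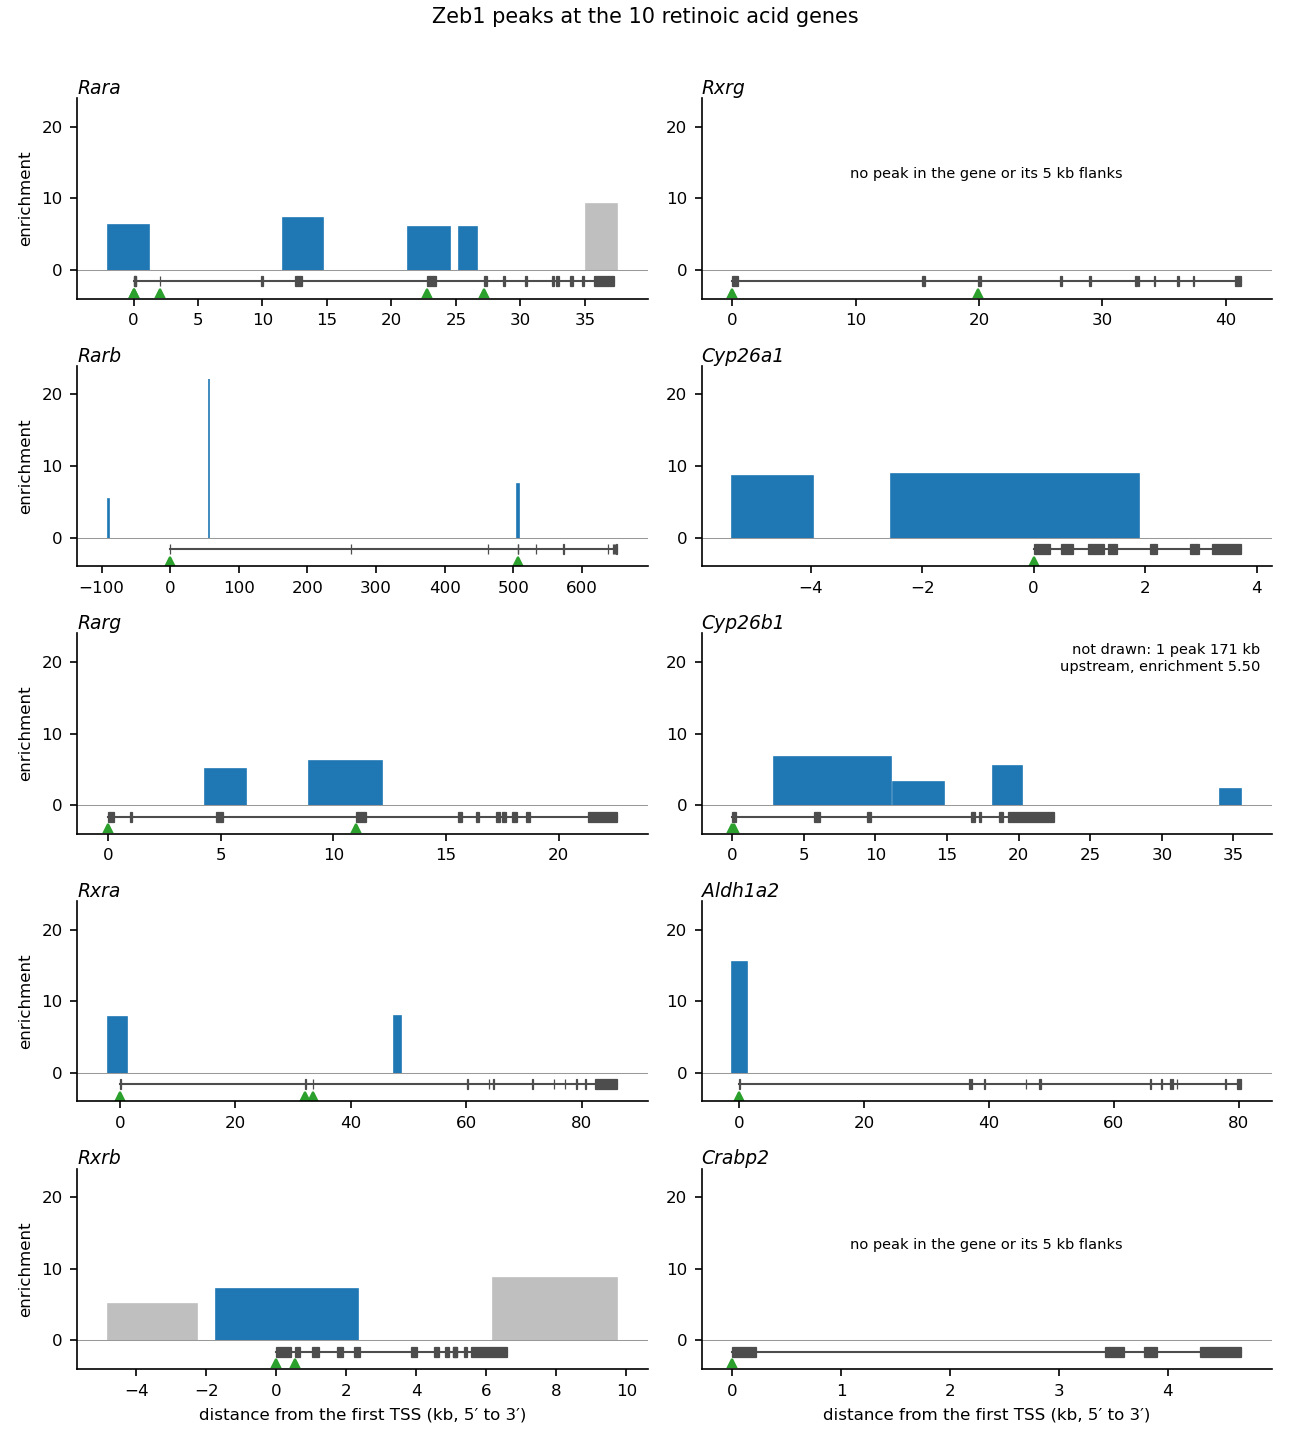
Gene models of the 10 genes (exons as dark boxes, curated TSSs as green triangles) with peaks drawn as boxes over their extent, where height is the enrichment over input and the horizontal axis is the distance in kb from the most upstream TSS. Blue peaks are assigned to the gene and grey ones to a neighbour. The peaks of Cyp26b1 run over the body of the gene and leave its curated TSSs free, and the tallest box is the Rarb peak in a LINE-1 element.

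RXR proteins are the shared partners of RAR and of many other nuclear receptors. Rxra, on the plus strand of chromosome 2, had 2 peaks of nearly equal enrichment and very different sequence. The peak at chr2:27675151-27678450 covered the most upstream of its 3 TSSs, with 90.4 treatment and 23.7 input reads (enrichment 7.80). It held 0 Zeb1 motif matches in 3300 bp, which was also so for 7.73% of 1035 peaks of like length. The 250 bases before the TSS, chr2:27676951-27677200 on the plus strand, have a GC content of 81.2% and no capitals, since no match lies there.

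Rxra promoter: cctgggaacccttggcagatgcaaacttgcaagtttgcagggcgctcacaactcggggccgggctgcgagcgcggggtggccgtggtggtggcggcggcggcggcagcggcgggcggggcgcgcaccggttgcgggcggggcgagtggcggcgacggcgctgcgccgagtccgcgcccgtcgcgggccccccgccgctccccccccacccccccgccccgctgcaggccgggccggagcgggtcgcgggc

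The second peak, at chr2:27724651-27725900 in intron 1, had 28 treatment and 7 input reads (enrichment 7.90). At 1250 bp it is the shortest of the 20 peaks, and it held the most Zeb1 motif matches, 8. Of 2487 peaks of like length, 2 held as many or more, this one included, and their median was 1. The stretch with 4 of the matches, chr2:27725591-27725881 on the plus strand, is shown with the matches in capitals, on either strand.

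Rxra intron 1: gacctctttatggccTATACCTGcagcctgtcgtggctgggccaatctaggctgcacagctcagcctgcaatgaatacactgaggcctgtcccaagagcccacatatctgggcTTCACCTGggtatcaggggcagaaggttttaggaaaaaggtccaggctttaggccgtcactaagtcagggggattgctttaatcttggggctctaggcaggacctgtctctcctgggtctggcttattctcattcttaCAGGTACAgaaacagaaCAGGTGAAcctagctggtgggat

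Rxrb, on the plus strand of chromosome 17, had 1 peak at chr17:34030101-34034150, which covered both of its TSSs. Its centre lay within coding sequence in exon 1 of the transcripts from the upstream TSS, and it had 81 treatment and 23.3 input reads (enrichment 7.24). Peaks of its neighbours flanked it on both sides. One, assigned to H2-Ke6, ended 2261 bp upstream of Rxrb with an enrichment of 5.06, and the other, assigned to Col11a2, overlapped its 3′ end with an enrichment of 8.67.

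Rxrg, the RXR of muscle and brain, had no peak in its 41262 bp or within 5 kb. The nearest peak downstream, assigned to Lmx1a, began 20577 bp past the gene with an enrichment of 5.50, and the nearest upstream, assigned to Mgst3, was 203511 bp away with an enrichment of 4.25. Of 966 coding genes of like length, 606 had at least some sequence in a peak.

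Aldh1a2 makes most of the retinoic acid of the early embryo. It lies on the plus strand of chromosome 9, and its single peak, at chr9:71214651-71217100, had its centre 86 bp past the TSS, within coding sequence of exon 1. The peak had 81.6 treatment and 10.3 input reads (enrichment 15.5), above 97.1% of the list. It had the highest enrichment among the 10 peaks of these genes near a TSS. Per kb it had 33.3 treatment and 4.20 input reads, against medians of 25.1 and 8.07 in all peaks. Over all peaks, enrichment was lower where input reads were higher (Spearman correlation -0.457). The peak held 0 Zeb1 motif matches in its 2450 bp, as did 15.6% of 2205 peaks of like length. The shorter E-box core CACCTG, which a Zeb1 motif ending in CACCTG contains, occurred once in the peak. It is in capitals in the 250 bases before the TSS, chr9:71215539-71215788 on the plus strand, which have a GC content of 77.6%.

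Aldh1a2 promoter: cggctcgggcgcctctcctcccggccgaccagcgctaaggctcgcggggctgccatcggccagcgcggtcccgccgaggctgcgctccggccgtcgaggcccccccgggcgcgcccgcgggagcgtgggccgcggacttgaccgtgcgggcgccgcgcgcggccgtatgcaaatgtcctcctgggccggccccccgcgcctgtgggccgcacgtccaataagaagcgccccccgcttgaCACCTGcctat

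Cyp26a1 oxidizes retinoic acid and is itself strongly induced by it. On the plus strand of chromosome 19, its peak at chr19:37695251-37699700 spanned 4450 bp around the single TSS, with 126 treatment and 29.3 input reads (enrichment 8.87). Only 3 of the 20 peaks had a higher enrichment or more treatment reads. These were the Rarb LINE-1 peak, the Aldh1a2 peak and, by treatment reads, the longest Cyp26b1 peak. The Cyp26a1 promoter peak was the only peak of the 10 genes with 2 DR5 elements, and 1.20% of 418 peaks of like length held at least 1. The downstream element is centred 24 bp upstream of the TSS and reads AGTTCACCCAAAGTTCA on the minus strand. The upstream element, GGGTCACAGGCGGGTCA, is centred 1891 bp upstream of the TSS on the plus strand. Both are in capitals in the following stretches of the plus strand, the 250 bases before the TSS at chr19:37697558-37697807 and the region at chr19:37695849-37695985.

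Cyp26a1 promoter: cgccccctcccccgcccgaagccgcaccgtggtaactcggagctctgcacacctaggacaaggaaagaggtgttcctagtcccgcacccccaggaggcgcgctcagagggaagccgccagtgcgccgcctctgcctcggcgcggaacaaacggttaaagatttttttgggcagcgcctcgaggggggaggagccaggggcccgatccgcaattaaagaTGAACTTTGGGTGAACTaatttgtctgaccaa
Cyp26a1 upstream: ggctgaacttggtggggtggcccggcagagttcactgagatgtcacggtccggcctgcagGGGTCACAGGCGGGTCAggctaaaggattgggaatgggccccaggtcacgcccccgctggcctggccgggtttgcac

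A second peak assigned to Cyp26a1, at chr19:37692401-37693850, ended 1400 bp before the promoter peak and had 35 treatment and 8 input reads (enrichment 8.6). Its centre lies 4683 bp upstream of the TSS, in exon 6 of 6 of Cyp26c1, the adjacent gene for a related enzyme. Cyp26c1 itself had 2 assigned peaks, the higher with an enrichment of 6.96.

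Cyp26b1, the other breakdown enzyme, is on the minus strand of chromosome 6, and neither of its curated TSSs, 98 bp apart, was inside a peak. The peak at chr6:84582801-84591000 was 8200 bp long, longer than 99.7% of all peaks, and began 2810 bp past the nearer TSS in the body of the gene, with its centre in intron 2. In the GENCODE vM21 annotation, 3 of 5 TSSs of Cyp26b1 lay inside this peak, so that its distance from a start depends on the annotation. It had 186 treatment reads and 49.1 input reads, more of either than any other of the 20 peaks, and an enrichment of 6.78. Only 150 bp separated it from the next peak, at chr6:84579101-84582650 in intron 3, with 55.5 treatment and 30.5 input reads (enrichment 3.30). A peak centred in intron 6, at chr6:84573701-84575700, had 62.2% of its length in the exons on either side, with 50.4 treatment and 18.1 input reads (enrichment 5.54).

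Together these peaks covered 61.1% of Cyp26b1. Of 1197 coding genes within 10% of its length, 1 had a higher share, and their median was 3.40%. The peak centred in intron 6 held a Zeb1 motif 7 bp from its centre, shown in capitals as it reads on the minus strand at chr6:84574664-84574751.

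Cyp26b1 intron 6: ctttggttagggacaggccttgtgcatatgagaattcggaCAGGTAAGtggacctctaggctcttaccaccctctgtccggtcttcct

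The remaining 2 Cyp26b1 peaks were outside the gene and annotated as repeats. The peak at chr6:84764001-84765300, an L1Md_Gf element 170742 bp upstream of the TSS and inside Exoc6b, had 30.5 treatment and 11 input reads (enrichment 5.50). The peak at chr6:84558351-84559850, an ORR1A4 LTR 34710 bp downstream of the TSS and 11564 bp past the end of the gene, had 20.5 treatment reads and 18 input reads. Its enrichment of 2.20 was the lowest of the 20 peaks and higher than in 0.361% of the list.

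Crabp2, a binding protein that passes retinoic acid to RAR, had no peak in the gene or within 5 kb. Of 726 coding genes of like length, 334 had any sequence in a peak, so that most had none. It lies on chromosome 3 between a peak assigned to Hdgf, 41192 bp upstream with an enrichment of 7.92, and one assigned to Nes, 17078 bp downstream with an enrichment of 6.36. No promoter window of Crabp2 was in the RefSeq table, and neither were those of the upstream Rarb TSS, the fourth Rara TSS, the third Rxra TSS and the outer Cyp26b1 TSS.

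**Figure D3:**
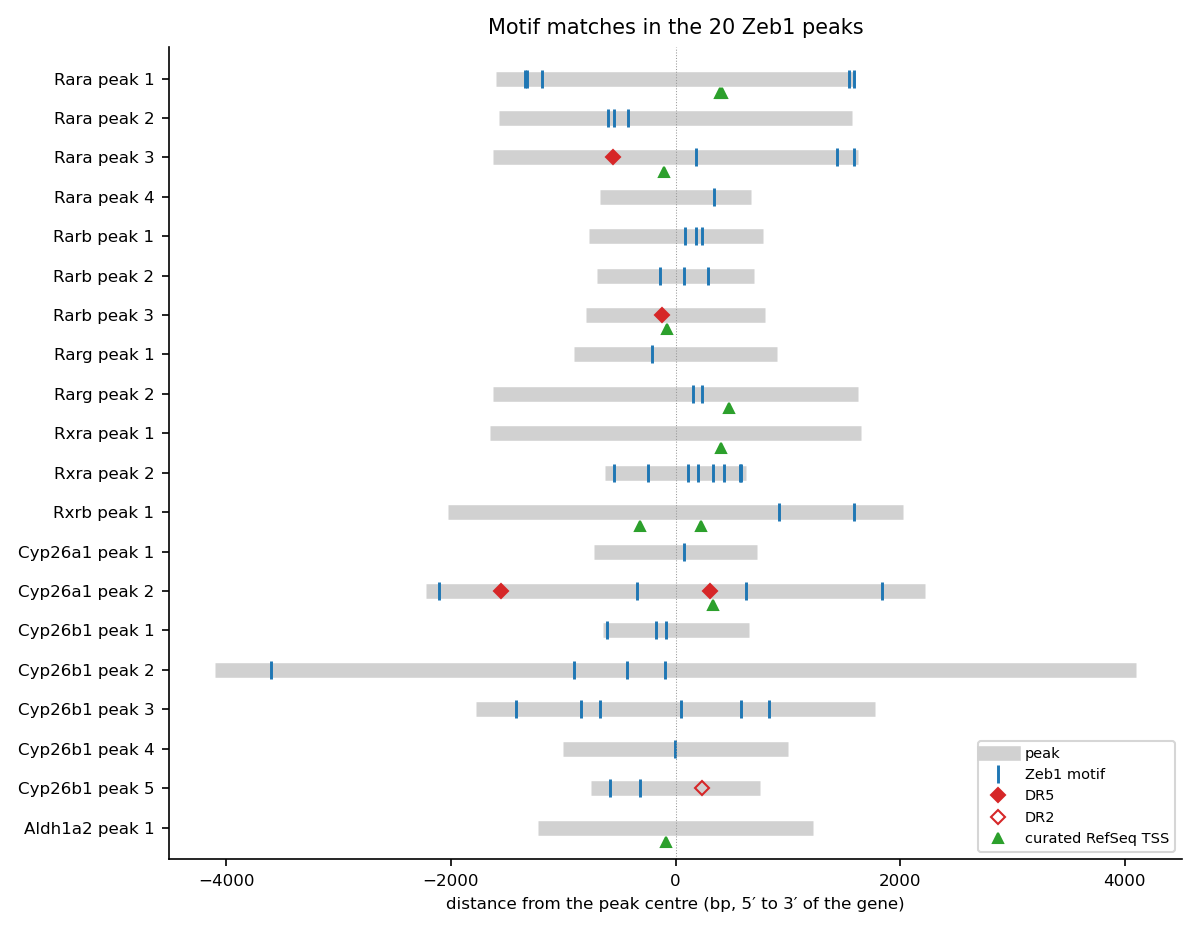
Positions of motif matches in the 20 peaks, as distance in bp from the peak centre in the direction of the gene, with peaks as grey bars, Zeb1 motif matches as blue ticks, DR5 elements as filled and DR2 elements as open red diamonds, and curated TSSs as green triangles. The DR5 elements of Rarb and Cyp26a1 nearest the TSS lie 45 and 24 bp from it, and 3 peaks over a TSS have no blue tick.

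The Zeb1 motif was found in 17 of the 20 peaks (85.0%), against 76.8% of all peaks and, on average, 81.0% of peaks of like length. It was absent from the TSS peaks of Rarb, Rxra and Aldh1a2. It was in 7 of the 10 peaks within 5 kb of the assigned TSS and in all 10 others, while in the whole list the share was 76.8% both within and beyond 5 kb. In the central 300 bp it was present in 8 of the 20 peaks, against 23.7% of all peaks. DR5 elements were in 3 peaks (15%), those over a TSS of Rara, Rarb and Cyp26a1, against 120 peaks of the list (0.688%) and, on average, 1.02% of peaks of like length. All 3 lay within 1 kb of the assigned TSS, where 0.561% of the 9095 peaks of the list held one. A DR2, with the same hexamers spaced by 2 bases, was in 1 peak, the LTR peak of Cyp26b1 (1.06% of all peaks), and a DR1 in none (1.43%). In the RefSeq promoter windows, 32 of 32851 held a DR5 (0.0974%), among them those of Rarb and Cyp26a1, out of 16 windows found for 9 of the 10 genes. Response elements of Rarb and Cyp26a1 were known before this search, and the hexamer variants used include those of their matches. The DR5 shares of the 10 genes therefore follow in part from the choice of genes. All motif matches given here describe letters in the sequence, and whether Zeb1 or RAR occupied them was not tested.

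Beyond the 10 genes, 46 other genes of the retinoid pathway were counted in 5 groups. Of the 46, 29 had an assigned peak (63.0%) and 26 had one within 5 kb of the TSS (56.5%), against 53.3% and 45.1% of all coding genes. The groups are small, and their counts are given without a test. Their 41 peaks had a median enrichment of 6.72. Uptake and storage had a peak at 3 of 7 genes (42.9%), with 2 of these within 5 kb of the TSS. Synthesis had a peak at 4 of 12, led by the retinaldehyde dehydrogenase Aldh1a3 (9.66), the retinol dehydrogenase Rdh10 (8.38) and Rdh14 (7.89). The Aldh1a3 peak, at chr7:66426451-66428500, was centred 2 bp from its TSS, like that of Aldh1a2, with 73.4 treatment reads and 15.9 input reads.

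In the binding and breakdown group, Cyp26c1 (6.96) and the binding protein Crabp1 (5.15) had a peak and Fabp5 had none. Crabp1 thus differed from Crabp2, with a peak at chr9:54763351-54766550 centred 202 bp past its TSS. Corepressors and coactivators of nuclear receptors had a peak at 10 of 12 genes, all within 5 kb of the TSS. Their highest enrichments were at the acetyltransferase Ep300 (10.9), the corepressor subunit Tbl1x (10.8) and the coactivator Ncoa2 (9.40). Genes known to respond to retinoic acid had a peak at 10 of 12, with the highest values at Fgf8 (8.98), Rarres1 (7.91) and Hoxb1 (7.4). None of the 41 peaks of these 46 genes held a DR5, which is close to the share of 0.688% in all peaks.

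As the family closest to RAR and RXR, 43 other nuclear receptors were counted in the same way. An assigned peak was present at 31 of them (72.1%) and within 5 kb of the TSS at 27 (62.8%), against 53.3% and 45.1% of all coding genes. Of the 6 RAR and RXR genes, 5 had a peak on both counts. The 58 peaks of the 43 other receptors had a median enrichment of 7.82, above the 6.53 of the 20 peaks and the 6.52 of the peaks of all coding genes. The highest values were at the orphan receptors Esrrg (16.9) and Nr2f2 (15.4), and at Hnf4g (14.2), Ppara (13.1) and Pparg (12.9). The Hnf4g peak lay in an LTR element 185170 bp from the TSS, outside the gene, and the other 4 within 5 kb of the TSS. The Esrrg peak, at chr1:187608451-187610500, was centred 469 bp past the TSS and had 63 treatment reads and 8.40 input reads. Only the Rarb LINE-1 peak was higher among the RAR and RXR peaks, and their highest value at a TSS was 7.80, at Rxra. A DR5 was found in 1 of the 58 peaks (1.72%), at Esrra, against 0.688% of all peaks.

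**Figure D4:**
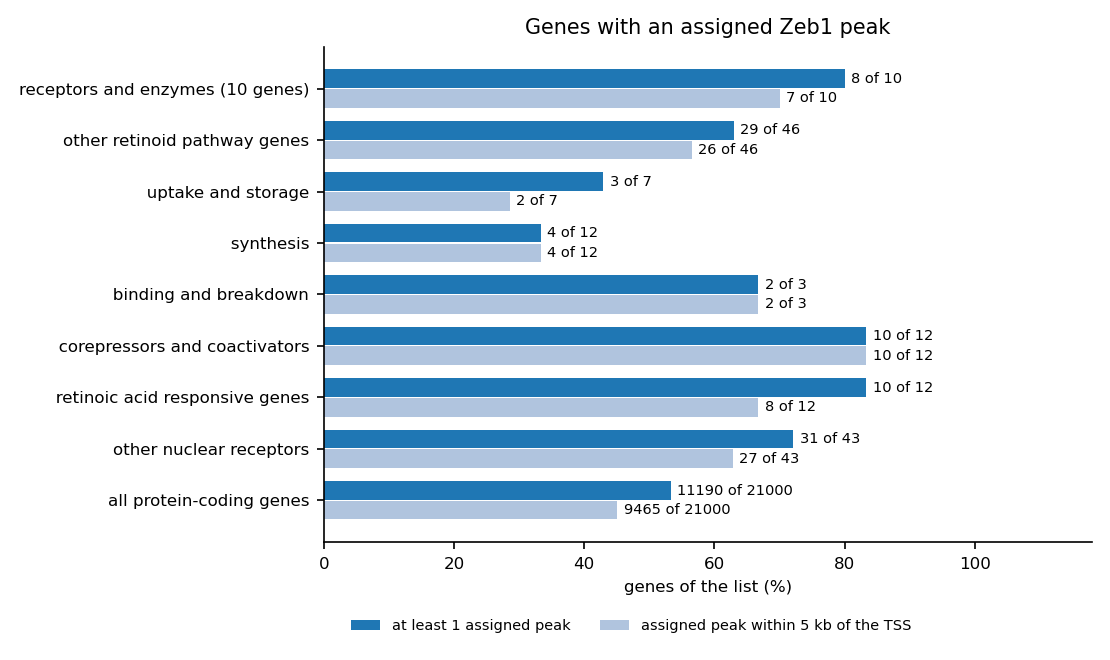
Percent of the genes of each list with an assigned Zeb1 peak (dark bars) and with one centred within 5 kb of the assigned TSS (light bars), with the counts beside the bars. The receptors and enzymes stand at 8 and 7 of 10, the corepressors and coactivators at 10 of 12, the synthesis genes at 4 of 12, and all protein-coding genes at 53.3% and 45.1%.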

How the data were processed

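All libraries, 3 of Zeb1 ChIP and 1 of input, came from mESC in GS. Per the submitters' processing notes, reads were handled with STAR 2.4.2a, Picard 1.136 and HOMER 4.7 on mm10 (GRCm38). The deposited list holds peaks found in at least 2 replicates, merged, with reads counted again. Its treatment and input read columns are a signal, the mean reads per peak as the authors averaged them over libraries. Enrichment is a ratio that the authors formed from treatment and input after normalizing for mapped reads, and its value divided by the plain ratio of the reads had a median of 2.07 over the peaks with input reads. The lowest treatment reads were 20 and the lowest enrichment 2. The p-value column was 0 throughout and was not used. The number of reads per peak limits precision, and counting error could not be separated from the spread between libraries.

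Peaks were matched to genes by the authors' symbol or Entrez ID, and to curated RefSeq transcripts and sequence of GRCm38.p6. The legend of the list calls positive distances upstream. With positive distances read as downstream, those of 14204 of the 17435 peaks fitted a curated TSS within 2 bp. Read as upstream, 6 did, so the downstream reading was used. Of the 20 peaks of the 10 genes, 19 had a distance within 2 bp of that to the nearest curated TSS. Like length means within 10%. Motif searches were tested on simulated sequences. The members and lists were chosen with earlier results of these data known. Named were all 10 genes, the genes with the highest enrichment in 4 groups of the pathway list and the 5 highest of the other nuclear receptors. In each of these groups 3 genes were named. For binding and breakdown these were all 3 of its genes, of which 2 had a peak. The fifth group, uptake and storage, is given as counts. Neighbours of the 10 genes and Esrra were named after their values were seen, and the counts by TSS, by share of a gene and by number of motif matches were chosen then too. Python 3.11.15, pandas 2.3.3, NumPy 2.4.6 and pysam 0.24.0 were used. The RNA-seq data were not analysed here.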

Additional observations from a re-analysis of the deposited data

How the results depend on the processing

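With an enrichment of at least 5, with overlap of the RefSeq gene in place of the assigned name, and with distances of 1 or 10 kb, the counts of genes and of peaks were within 1.5 times those reported. The same held without LINE-1 peaks and with any GENCODE TSS, both chosen after seeing the data. With at least 40 treatment reads, 12 of the 20 peaks were left, at 7 of the 10 genes. The gene lost was Rarb, whose 3 peaks had 34, 39.8 and 34.3 treatment reads. Its LINE-1 peak and its peak with a DR5 were thus left out. The median enrichment of the 20 peaks, 6.53, became 7.57 with the highest peak of each gene and 7.38 within 5 kb of the TSS. As the plain ratio of treatment to input reads it was 3.34, and the reason for this lower value was not tested. The Zeb1 motif was in 8 peaks when the central 300 bp were searched, a shorter sequence, and the E-box core was in all 20, against 82.1% of all peaks and, on average, 85.3% of those of like length. In place of the 3 peaks with a DR5, 1 had a DR2 and 0 a DR1, and 4 had a DR5 within the peak or 1 kb of it. Leaving out each library in turn was not run, because the list holds no values per library. No paired analysis was possible because the list carries no replicate numbers.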
